A study of Mus musculus with 10 samples.

Results

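Mature sperm and testes of cadmium-treated mice were compared, using 2 sperm libraries (Sperm-Cd-1 and Sperm-Cd-2) and 2 testes libraries (Testes-Cd-1 and Testes-Cd-2) out of the 10 libraries of the series. The libraries were taken by their titles, and the expected counts of all transcripts of a gene were summed. Expected counts estimate how many sequenced fragments each transcript gave. The labels give the mice as C57BL/6, aged 3 to 5 months, from an arm of 50 animals injected once into the peritoneum with CdCl2 at 3 mg/kg and killed on day 35. A second arm of 50 animals in the labels received saline and gave 4 sperm pools and 2 testes libraries, which were used here only for comparison. The study's methods give another number and another age range of mice for its sperm pools. In the study's methods, which describe the control animals, sperm came from the vas deferens and the cauda of the epididymis, and somatic cells were lysed. How many mice entered each cadmium library was not given in the sources used here, so p-values measure only the spread between these libraries, which may be technical. Ribosomal RNA was removed with RNase H before strand-specific sequencing.

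Sperm form in the testis from round spermatids. As a spermatid elongates, its histones are replaced by transition proteins and then by protamines, transcription stops, and most of the cytoplasm is shed with its RNA. The testis holds every earlier germ cell stage together with Sertoli, Leydig, peritubular and vascular cells, whereas mature sperm carry only a small remainder of RNA. Cadmium is a metal known to injure the vessels and the blood-testis barrier, and it is bound in cells by metallothioneins.

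The expected counts summed to 1155491 and 1254477 in cadmium sperm and to 2845417 and 2709568 in cadmium testes. Sperm therefore had less than 50% of the depth of testes, although both sperm libraries were deeper than each of the 4 control sperm pools, which held 366455 to 1058017. A share of 3 counts, the smallest treated as measurable, was 0.00026% and 0.000239% of the sperm libraries and 0.000105% and 0.000111% of the testes libraries, for counting error only. Most counts fell on long noncoding RNA models, and known mRNAs held 13.6% and 10.5% of the counts in sperm and 11.3% and 11.6% in testes. An mRNA gene therefore holds only the fragments assigned to its own RefSeq models, and RNA of models that overlap it may be split between them. Of 99 genes of the naming rule with RefSeq coordinates, 50 overlapped another RefSeq gene. In such bulk libraries, fewer cells of a type and less RNA per cell cannot be told apart.

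**Figure D1:**
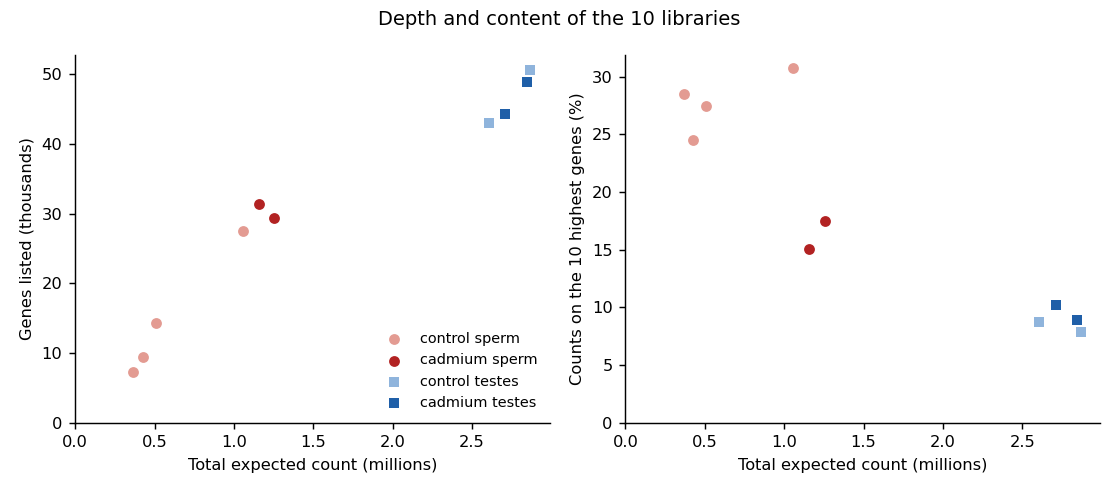
Number of genes listed (left) and share of counts on the 10 highest genes, in percent (right), against the total expected count of each of the 10 libraries. The cadmium sperm libraries listed 31366 and 29336 genes and the cadmium testes libraries 48779 and 44307, and the 10 highest genes held more of the counts in both cadmium sperm libraries than in either cadmium testes library.

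The sperm libraries listed fewer genes than the testes libraries, and more of their counts fell on few genes. There were 31366 and 29336 genes in sperm and 48779 and 44307 in testes, a ratio of 65.2% between the means. After thinning to the total of the shallowest cadmium library, sperm had 31041 and 28476 genes above 0 and testes 38304 and 34516, a ratio of 81.7%. The 10 highest genes held 15.0% and 17.5% of the counts in sperm and 8.88% and 10.2% in testes. Predicted lncRNAs, which are transcripts of the authors' own assembly, took 10.7% of the counts in both sperm libraries and 7.91% and 8.23% in testes. In each of these 4 measures the tissues did not overlap, but a two-sided exact permutation test of 2 against 2 libraries cannot go below p = 0.333, which is the value each gave. Across the 14212 genes tested, Pearson's r of log2(CPM + 1), with CPM the counts scaled to library size, was 0.882 between the sperm libraries, 0.933 between the testes libraries and 0.397 to 0.469 between a sperm and a testes library. Genes are not independent replicates, and these coefficients carry no p.

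The tissue labels were compared with defining markers. The haploid germ cell markers were Prm1, Prm2, Tnp1, Tnp2, Akap4, Odf1 and Smcp. They summed to 267 and 317 counts in sperm and to 769 and 738 counts in testes. Most of the sperm sum was Prm2, with 239 and 291 counts in sperm and 406 and 262 in testes. Prm1, Tnp1, Tnp2 and Akap4 were lower in both sperm libraries than in either testes library, also when scaled to library size. In each sperm library 5 of the 7 markers were above 0, and Odf1 was at 0 in all 4 libraries. Spermatogonial markers summed to 2 and 8 counts in sperm and 277 and 324 in testes, nearly all from Gfra1, while Kit was at 0 in both sperm libraries. Spermatocyte markers summed to 4 and 0 counts in sperm and 15 and 20 in testes, with Sycp1 at 0 in both sperm libraries. Leydig cell markers summed to 16 and 31 counts in sperm and 180 and 120 in testes, mostly from Star, and Cyp11a1 was at 0 in all 4 libraries. Sertoli cell markers were at 1 and 6 counts in sperm and 12 and 2 in testes, so the testes label could not be tested with them. Leukocyte markers summed to 10 and 5 counts in sperm and 4 and 5 in testes, with Adgre1 at 0 throughout and Ptprc at no more than 1. Markers of the epididymal and vas deferens epithelium summed to 15 counts in both sperm libraries and to 13 and 40 in testes, with Cdh1 at 1 and 3 counts in sperm and at 0 in testes. The part of such cells in the results was not tested.

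Between cadmium sperm and cadmium testes, 6849 of 14212 genes tested were called, which is the background rate of 48.2% for this comparison. Calls required an adjusted p (Benjamini-Hochberg) below 0.05 together with over 2-fold change in edgeR's quasi-likelihood test. Of these genes, 3606 were higher in sperm (25.4% of the genes tested) and 3243 lower (22.8%). The balance depended on the scaling. With the library total alone in place of TMM, 2837 genes were higher and 3925 lower, because that scaling moved the median of all genes by -0.41 on the log2 scale. The fit gave every gene the spread of the common trend, with infinite prior degrees of freedom, so replicate values are given below beside each test. The tissues did not overlap in 73.2% of the genes tested.

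**Figure D2:**
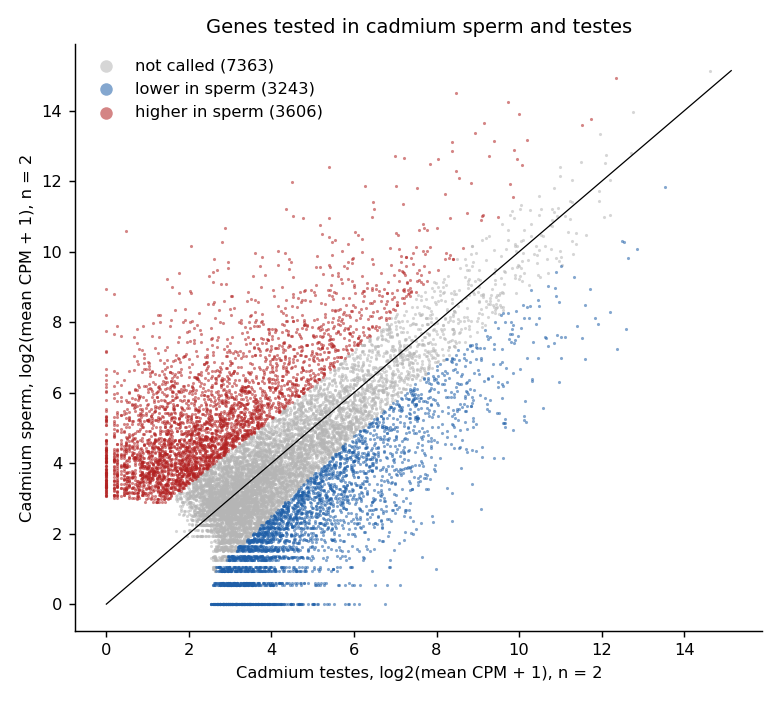
Each point is 1 of 14212 genes, placed by log2(mean CPM + 1) of the 2 cadmium testes libraries (horizontal) and of the 2 cadmium sperm libraries (vertical), with CPM the counts scaled to a common library size with TMM. Red points (3606) were higher and blue points (3243) lower in sperm, and the straight lower edges on both sides mark the count filter.

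The count filter shaped these numbers. A gene was tested when 2 libraries reached 5.05 CPM, the rate of 10 counts in a library of median size. Of the genes tested, 2709 reached that rate in both sperm libraries but not in both testes libraries. Another 4299 reached it in both testes libraries but not in both sperm libraries. These are the genes described below as passing only through sperm or only through testes. A library of the other tissue could still reach the rate. Such genes mostly enter through the tissue in which they are high. Of the 2709, 2271 were called higher and 0 lower, and of the 4299, 2294 were called lower and 6 higher. Among the 6379 genes that reached the rate in all 4 libraries, 2259 were called (35.4%), 1311 higher (20.6%) and 948 lower (14.9%). The median log2 fold change of the 6379 genes was 0.03. Both testes libraries were at 0 for 118 genes called higher, and both sperm libraries were at 0 for 345 genes called lower.

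The share of genes called differed between RNA classes. Of the 3398 known mRNA genes tested, 55.1% were called, 1067 higher (31.4%) and 805 lower (23.7%), with a median log2 fold change of 0.07. Predicted lncRNA genes gave 502 higher (34.2%) and 318 lower (21.6%) of 1469, with 55.8% called and a median of 0.31. Known lncRNA genes, from the NONCODE collection, gave 1953 higher (21.8%) and 2029 lower (22.6%) of 8969, with a median of -0.26. Predicted mRNA genes gave 84 higher (22.3%) and 91 lower (24.2%) of 376. On the X chromosome 31 of 499 listed mRNA genes were tested, 13 of them higher and 5 lower, beside 1007 higher and 771 lower of 3231 on the autosomes. None of the 25 listed Y-linked genes passed the filter.

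Protamines and transition proteins package the DNA of the spermatid. Of their genes, Prm1, Prm2 and Tnp2 lie, together with Prm3, within 8889 bp on chromosome 16 (GRCm38.p6, chr16:10787935-10796823). Prm1 and Tnp2, at the ends of that span, were called lower, Prm2 was called higher, and Prm3, between Tnp2 and Prm2, was not called (log2 fold change 0.92, adjusted p = 0.27). The promoters of Prm1, Prm2 and Tnp2, with that of Tnp1 from chromosome 1, are shown because these genes lie in 1 cluster or serve the same step and yet differed in direction. Each runs from 250 bases before to 50 bases after the start site, from RefSeq (GRCm38.p6), on the minus strand, and capitals mark matches to TGANNTCA, a pattern that reads the same on both strands and includes the cAMP response element, the site class bound by the spermatid regulator CREM. The windows are chr16:10796774-10797073 for Prm1, chr16:10792056-10792355 for Prm2, chr16:10788606-10788905 for Tnp2 and chr1:73015850-73016149 for Tnp1.
Prm1: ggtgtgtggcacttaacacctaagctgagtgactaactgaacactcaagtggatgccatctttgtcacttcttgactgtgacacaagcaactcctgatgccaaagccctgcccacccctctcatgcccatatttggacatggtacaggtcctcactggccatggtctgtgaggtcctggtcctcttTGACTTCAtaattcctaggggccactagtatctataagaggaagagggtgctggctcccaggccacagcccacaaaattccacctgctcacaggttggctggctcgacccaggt
Prm2: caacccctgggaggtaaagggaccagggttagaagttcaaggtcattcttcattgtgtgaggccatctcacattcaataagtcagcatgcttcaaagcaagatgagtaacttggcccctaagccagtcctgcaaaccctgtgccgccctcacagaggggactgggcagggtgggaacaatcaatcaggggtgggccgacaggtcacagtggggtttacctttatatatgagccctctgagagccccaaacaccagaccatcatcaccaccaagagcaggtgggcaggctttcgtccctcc
Tnp2: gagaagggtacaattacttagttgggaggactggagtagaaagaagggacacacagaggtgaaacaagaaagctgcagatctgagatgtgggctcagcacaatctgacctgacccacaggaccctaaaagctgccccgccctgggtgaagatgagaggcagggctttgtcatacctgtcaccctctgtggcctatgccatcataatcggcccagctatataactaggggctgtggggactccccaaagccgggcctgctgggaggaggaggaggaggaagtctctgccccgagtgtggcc
Tnp1: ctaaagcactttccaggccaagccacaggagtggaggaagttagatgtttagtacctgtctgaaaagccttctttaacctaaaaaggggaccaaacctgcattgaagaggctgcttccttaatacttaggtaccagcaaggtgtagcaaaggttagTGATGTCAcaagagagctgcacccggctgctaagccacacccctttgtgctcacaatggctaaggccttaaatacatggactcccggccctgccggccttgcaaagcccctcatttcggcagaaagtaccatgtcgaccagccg
The pattern occurred once in Prm1, as TGACTTCA starting 64 bases before the start site, once in Tnp1, as TGATGTCA starting 94 bases before it, and not in these letters in Prm2 or Tnp2. Of 27025 promoters of the same length, 14.4% held it. A match is a description of the letters and not evidence of binding.

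Prm1 encodes the protamine that is made in its final form. It had 24.0 and 20.0 FPKM in sperm and 118 and 136 FPKM in testes, where FPKM divides the count by the transcript length and the library size and is summed over the transcripts of a gene. Both sperm libraries were below both testes libraries, and the log2 fold change was -2.13 (standard error of the fit, SE, 0.63, adjusted p = 0.0025). Prm2, the protamine made as a longer precursor, had 353 and 397 FPKM in sperm and 248 and 169 FPKM in testes. It was higher in both sperm libraries, with a log2 fold change of 1.30 (SE 0.55, adjusted p = 0.040). That call was lost under 9 of the 14 alternatives tried, among them library size alone, and without Sperm-Cd-2, Testes-Cd-1 or Testes-Cd-2 the adjusted p was 0.22, 0.18 and 0.22. Tnp2, a transition protein gene, had 23.7 and 15.7 FPKM in sperm and 71.4 and 121 FPKM in testes, with a log2 fold change of -1.96 (SE 0.61, adjusted p = 0.0042). Tnp1, the more abundant transition protein in most mammals, had 4.47 and 6.21 FPKM in sperm and 107 and 140 FPKM in testes, with a log2 fold change of -4.10 (SE 0.77, adjusted p = 8.4e-07). Without Testes-Cd-2 the call of Tnp2 was lost (log2 fold change -1.26, adjusted p = 0.18), while those of Prm1 and Tnp1 held under all 14 alternatives.

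The other genes of nuclear condensation were also split. Of 19 listed members 11 passed the filter, 5 of them only through testes, and 3 were higher and 6 lower, beside 25.4% and 22.8% of all genes, with a median of -1.96. Without Testes-Cd-2 the list had 2 higher and 3 lower members, since Prm2, Tnp2, Brdt and Meig1 were no longer called. Chd5, a chromatin remodeler of the histone-to-protamine exchange, had 9.94 and 7.38 FPKM in sperm and 0.86 and 0.87 FPKM in testes, with a log2 fold change of 3.69 (SE 0.60, adjusted p = 1.3e-08). Spem1, needed for shedding of the spermatid cytoplasm, had 40.0 and 17.7 FPKM in sperm and 7.14 and 6.39 FPKM in testes and was called higher. Rnf8, a ubiquitin ligase that acts on spermatid histones, had 0 counts in both sperm libraries and 53 and 40 counts in testes, so it was at least 5.10-fold lower in sperm with 3 counts per library as the floor (adjusted p = 5.6e-06). As CPM of the library total, without TMM, the list summed to similar levels, with 363 to 383 CPM in sperm and 357 to 377 in testes, with Prm2 holding 239 of 443 counts and 291 of 456 counts in the sperm libraries.

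**Figure D3:**
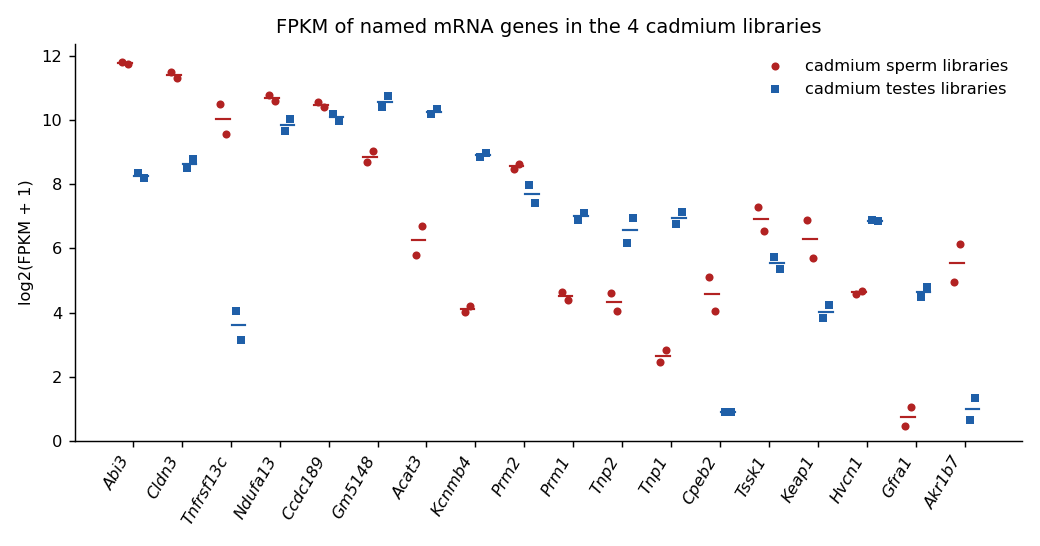
FPKM of 18 mRNA genes on a log2(FPKM + 1) scale, with the 2 cadmium sperm libraries as red circles, the 2 cadmium testes libraries as blue squares, and short lines at the means. Abi3, Cldn3, Tnfrsf13c, Cpeb2, Keap1 and Akr1b7 lie higher in both sperm libraries, while Acat3, Kcnmb4, Tnp1, Hvcn1 and Gfra1 lie lower.

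Kinases of the spermatid were found in sperm at a higher level than in testes or did not pass the test. Of 16 listed members 9 passed the filter, 2 of them only through sperm and 2 only through testes, and 5 were higher, 0 lower and 4 not called. Without Testes-Cd-1 or Testes-Cd-2, 3 members were higher. Under the background of 25.4% of all genes called higher, 5 of 9 is a description, since the members were chosen with earlier results known. Tssk1, a testis-specific serine kinase of the elongating spermatid, had 157 and 91.7 FPKM in sperm and 51.9 and 39.9 FPKM in testes, with a log2 fold change of 1.81 (SE 0.55, adjusted p = 0.0034). Tssk6, a kinase needed for condensation of the sperm head, had 35.9 and 32.5 FPKM in sperm and 8.99 and 10.6 FPKM in testes, with a log2 fold change of 2.17 (SE 0.58, adjusted p = 0.00076). Tssk6 shares 375 bp with Ndufa13 in RefSeq. Tssk1 was not called without Testes-Cd-1 or Testes-Cd-2 (adjusted p = 0.074 and 0.060), nor Tssk6 without Testes-Cd-1 (adjusted p = 0.068). Csnk2a2, a casein kinase subunit, had 10.4 and 5.53 FPKM in sperm and 0.85 and 1.68 FPKM in testes. Camk4 was called too (log2 fold change 1.47, adjusted p = 0.031), but its testes libraries held 54 and 18 counts, and 10 of 14 alternatives did not call it, including those without Sperm-Cd-2 or Testes-Cd-2 (adjusted p = 0.16 and 0.30).

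Regulators of spermatid transcription and of stored mRNA behaved in both ways. Of 26 listed members 9 passed, 4 of them only through sperm, with a median log2 fold change of 1.66. Of these 9 members 5 were higher and 1 lower, beside 25.4% and 22.8% of all genes. Without Sperm-Cd-1, Testes-Cd-1 or Testes-Cd-2, 3 members were higher. Cpeb2, which binds the cytoplasmic polyadenylation element of stored mRNAs, had 33.4 and 15.7 FPKM in sperm and 0.89 and 0.88 FPKM in testes. This was a log2 fold change of 5.12 (SE 0.65, adjusted p = 2.6e-13). Sox30, a transcription factor of the round spermatid, had 8.73 and 4.56 FPKM in sperm and 1.07 and 0.25 FPKM in testes, with a log2 fold change of 3.69. Ybx1, a cold-shock domain protein that binds mRNA, was the single member called lower, with 8.38 and 5.59 FPKM in sperm and 39.1 and 38.3 FPKM in testes (log2 fold change -2.11, SE 0.58, adjusted p = 0.00098). Its germ-cell relative Ybx2, a repressor of protamine mRNA translation, had 15.8 and 15.1 FPKM in sperm and 51.3 and 36.7 FPKM in testes but did not pass (log2 fold change -1.09, adjusted p = 0.090). Of the genes that the study names, Celf3 was called higher (log2 fold change 1.66, adjusted p = 0.047) with only 11 and 10 counts in sperm and 12 and 8 in testes, and 13 of 14 alternatives did not call it, with adjusted p from 0.10 to 0.20 when 1 library was left out.

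In the fibrous sheath and outer dense fibres of the flagellum, 9 of 25 listed members passed. Of these, 0 were higher, 2 were lower and 7 were not called, where 25.4% and 22.8% of all genes were called higher and lower. The 2 lower members passed the filter only through testes, and of the 5 that passed in both tissues 0 were called. Both lower calls, Akap3 and Akap4, were lost without Testes-Cd-2. Akap3, a scaffold protein of the fibrous sheath, had 0 counts in both sperm libraries and 18 and 38 counts in testes, at least 3.33-fold lower in sperm (adjusted p = 8.5e-05), and its partner Akap4 had 2 and 0 counts in sperm and 23 and 39 in testes. Without Testes-Cd-2 the adjusted p of Akap3 was 0.14. Odf2, a major outer dense fibre protein, had 35.4 and 25.5 FPKM in sperm and 27.6 and 45.7 FPKM in testes, and Tcp11 had 38.2 and 37.1 FPKM in sperm and 38.2 and 39.9 FPKM in testes. Neither was called, with log2 fold changes of 0.05 (SE 0.54) and 0.41 (SE 0.53). In energy metabolism 6 of 25 listed members passed, 1 was higher and 3 were lower, beside the same shares of all genes. All 3 lower members passed only through testes. Eno4, an enolase of the flagellum, had 2 and 0 counts in sperm and 63 and 74 in testes, a ratio of testes to sperm of 22.5 (95% counting interval 6.12 to 188). Ldhc, the lactate dehydrogenase subunit of germ cells, had 2 and 1 counts in sperm and 41 and 119 in testes. Pkm, pyruvate kinase, was called higher (log2 fold change 1.38, adjusted p = 0.032) but lost the call under 11 of 14 alternatives, among them those without Sperm-Cd-1, Testes-Cd-1 or Testes-Cd-2 (adjusted p = 0.20, 0.32 and 0.060), and Gapdh was not called (log2 fold change -0.10, SE 0.54).

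Of 26 listed acrosome members 7 passed the filter, 6 being called lower and 1 higher, beside 22.8% and 25.4% of all genes. Of the 6 lower members 5 passed only through testes, where they are high, so nothing is read from their count, and Adam1b passed in both tissues. Without Testes-Cd-2 only Spesp1 was still called lower, and Acrbp, Spaca1, Adam1b, Adam3 and Crisp2 were not. The median fitted log2 fold change was -2.94, and -1.35 when members with an empty tissue were set at their bound. Acrbp, which binds the protease acrosin, had 6.36 and 3.91 FPKM in sperm and 20.8 and 29.9 FPKM in testes, with a log2 fold change of -1.97 (SE 0.66, adjusted p = 0.0078), which was not called without Sperm-Cd-2 or Testes-Cd-2 (adjusted p = 0.0612 and 0.15). Spesp1, a protein of the equatorial segment, had 0 counts in both sperm libraries and 28 and 19 in testes, at least 2.55-fold lower (adjusted p = 0.00029). Pcsk4, a proprotein convertase of the sperm head and one of the genes the study names, was the exception. It had 17 and 12 counts in sperm and 1 and 0 in testes, a ratio of 88.2 (95% counting interval 14.6 to 3603).

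Channels and signalling proteins of motility went both ways. Of 23 listed members 7 passed, 3 were higher and 1 was lower, beside 25.4% and 22.8% of all genes. Of the higher members, 2 passed the filter only through sperm. Catsper2, a pore subunit of the calcium channel of the sperm tail, had 12.5 and 7.55 FPKM in sperm and 2.39 and 2.01 FPKM in testes, with a log2 fold change of 2.54 (SE 0.66, adjusted p = 0.00053). Ppp1cc, the catalytic subunit of a protein phosphatase of sperm, had 28.9 and 14.4 FPKM in sperm and 3.51 and 3.74 FPKM in testes, with a log2 fold change of 2.90. Hvcn1, the proton channel, was lower, with 23.0 and 24.6 FPKM in sperm and 117 and 114 FPKM in testes (log2 fold change -1.89, SE 0.56, adjusted p = 0.0027).

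Genes of earlier germ cell stages were called in both directions. Most of these passed the filter only through the tissue where they are high, so nothing is read from their count. Gfra1, the receptor subunit for GDNF on spermatogonial stem cells, had 0.39 and 1.08 FPKM in sperm and 21.7 and 27.0 FPKM in testes, with a log2 fold change of -4.63 (SE 0.70, adjusted p = 7.6e-10). Dmrtb1, a transcription factor at the entry to meiosis, was lower too, with 4 and 1 counts in sperm and 67 and 147 in testes. Of 22 listed spermatogonial members 5 passed, 3 were lower and 2 higher, beside 22.8% and 25.4% of all genes. Egr4, called lower, was the single member that passed in both tissues. Gfra1 and Dmrtb1 passed only through testes, and the 2 higher members only through sperm. The 2 higher members, Id4 and Sohlh1, are regulators of spermatogonia, and they had 9 and 15 counts and 21 and 13 counts in sperm against 3 and 1 counts and 2 and 5 counts in testes. Of 25 meiotic genes only 3 passed and 1, Tex15, was lower, with 0 counts in both sperm libraries and 29 and 14 in testes (at least 2.27-fold lower). Of 23 piRNA pathway genes 6 passed. Mov10l1, the RNA helicase that starts piRNA production, was higher with 26 and 16 counts in sperm and 9 and 6 in testes. Mael was lower with 0 counts in sperm and 15 and 34 in testes. Mov10l1 passed the filter only through sperm, and Tex15 and Mael only through testes. Tex15 was not called without Testes-Cd-1 and Mael not without Testes-Cd-2 (adjusted p = 0.13 and 0.20).

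Some genes of the lists for somatic cells were higher in sperm. Of 26 listed Sertoli cell genes 4 passed, 3 higher and 1 lower, beside 25.4% and 22.8% of all genes. Of the 4 genes, 1 higher gene passed the filter only through sperm and the lower gene only through testes. The listed genes summed to 3192 to 3700 CPM in sperm and 514 to 616 in testes. Nearly all of this was Cldn3, a tight-junction claudin that epithelia also make, with 2899 and 2510 FPKM in sperm and 359 and 441 FPKM in testes (log2 fold change 3.11, SE 0.69, adjusted p = 3.4e-05). Of the 5 defining Sertoli markers, Wt1 was at 0 in both sperm libraries, Fshr was at 0 in all 4 cadmium libraries, and Sox9, Amh and Cst12 had 0 and 5, 0 and 1, and 1 and 0 counts in sperm. Rhox8, an X-linked homeobox gene, was called higher although its testes libraries held 34 and 1 counts, and Dhh, a hedgehog ligand of Sertoli cells, was lower with 1.85 and 1.70 FPKM in sperm and 15.9 and 18.1 FPKM in testes (log2 fold change -2.88, adjusted p = 0.00016). Of 21 Leydig cell genes 4 passed and 1 was called, having passed the filter only through sperm. That gene was Akr1b7, an aldo-keto reductase also known as a major protein of the mouse vas deferens, with 30.1 and 69.7 FPKM in sperm and 0.58 and 1.54 FPKM in testes. Its log2 fold change was 5.93 (SE 0.73, adjusted p = 4.2e-14), and the part of RNA from the duct in it was not tested. Star, the cholesterol carrier of steroid synthesis, had 3.47 and 5.59 FPKM in sperm and 14.6 and 9.84 FPKM in testes and was not called (log2 fold change -0.98, adjusted p = 0.15).

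The remaining somatic lists gave no called gene. Of 31 listed genes of the epididymal and vas deferens epithelium 2 passed, Epcam (log2 fold change 0.91, adjusted p = 0.30) and Krt8 (log2 fold change -1.61, adjusted p = 0.12), and the list summed to 29.4 to 31.1 CPM in sperm and 19.3 to 45.4 in testes. Of 21 peritubular and endothelial genes 2 passed, Tagln and Mylk, with summed levels of 11.5 to 20.2 in sperm and 32.4 to 43.3 in testes. Of 16 listed leukocyte and erythrocyte genes 0 passed, and their summed level was 10.4 to 24.2 in sperm and 12.5 to 17.2 in testes.

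Cadmium binds to metallothioneins, and their genes were close to the floor in these libraries. Mt1 had 0 counts in both sperm libraries and 2 and 0 in testes, and Mt2 had 0 in both sperm libraries and 0 and 3 in testes, so no difference was detectable at this depth. Of 36 listed genes of metal handling and oxidative defence 9 passed, 2 higher and 2 lower, beside 25.4% and 22.8% of all genes. Of the 2 lower genes, 1 passed the filter only through testes. Mtf1, the zinc-sensing factor that switches on metallothioneins, had 11.2 and 9.39 FPKM in sperm and 28.5 and 48.1 FPKM in testes, with a log2 fold change of -1.58 (SE 0.56, adjusted p = 0.012). It was not called without Sperm-Cd-2 or Testes-Cd-2 (adjusted p = 0.0910 and 0.35). Slc30a1, a zinc exporter, had 14.7 and 7.48 FPKM in sperm and 1.96 and 2.34 FPKM in testes, with a log2 fold change of 2.69 (adjusted p = 2.5e-05). Keap1, the sensor that holds NRF2 in check, had 117 and 50.7 FPKM in sperm and 13.3 and 17.8 FPKM in testes, with a log2 fold change of 2.73 (SE 0.58, adjusted p = 1.6e-05). Txndc2, a thioredoxin of the sperm tail, was lower with 0.51 and 1.88 FPKM in sperm and 16.3 and 11.8 FPKM in testes. Each of these 4 genes had the same direction in control mice, where the log2 fold changes were -2.44, 2.61, 2.25 and -2.86.

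Heat shock genes were mostly not called. Of 30 listed members 15 passed, 1 was higher, 4 were lower and 10 were not called. Over all genes 25.4% were called higher and 22.8% lower. The 4 lower members passed the filter only through testes and the higher one only through sperm. Of the 7 members that passed in both tissues, 0 were called. The 4 lower calls, Hspa4l, Hsp90b1, Dnajb3 and Calr, were all lost without Testes-Cd-2, and those of Dnajb3 and Calr without Sperm-Cd-2. Hspa1b, a stress-inducible HSP70 gene, had 27 and 47 counts in sperm and 2 and 4 in testes, a log2 fold change of 5.14 (SE 0.77, adjusted p = 5.2e-10). Its near-identical neighbour Hspa1a had 59 and 47 counts in sperm and 103 and 81 in testes and was not called (log2 fold change 0.79), and reads cannot be assigned between the copies with certainty. Dnajb8, the member with the highest level, had 139 and 94.7 FPKM in sperm and 224 and 267 FPKM in testes and was not called (log2 fold change -0.73, adjusted p = 0.27).

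Genes that every cell uses were called in both directions. Most of those called passed the filter only through the tissue where they are high, so nothing is read from their count. Of 84 cytosolic ribosomal protein genes 22 passed, 3 were higher, 3 lower and 16 not called, with a median log2 fold change of -0.26. Over all genes 25.4% were called higher and 22.8% lower. All 3 lower genes passed only through testes, and 1 of the 3 higher genes only through sperm. Rps12 had 462 and 197 FPKM in sperm and 38.2 and 15.0 FPKM in testes (log2 fold change 4.05, SE 0.61, adjusted p = 7.7e-10), and Rpl10 had 148 and 84.4 FPKM in sperm and 17.4 and 14.9 FPKM in testes (log2 fold change 3.22). Rpl28 was lower, with 13.3 and 1.75 FPKM in sperm and 84.0 and 95.5 FPKM in testes. These genes have many processed copies in the genome, and 3 snoRNA genes overlap Rps12, so their counts are uncertain. Of 43 proteasome genes 10 passed, 5 higher and 3 lower. Here 4 of the 5 higher genes passed only through sperm and all 3 lower genes only through testes. Without Testes-Cd-1 there were 3 higher and 1 lower, without Sperm-Cd-2 3 higher, and without Testes-Cd-2 1 lower. Psmd8, a subunit of the regulatory particle, had 64 and 44 counts in sperm and 14 and 5 in testes, while Psma3, a subunit of the core, had 1 and 0 counts in sperm and 35 and 25 in testes. Of 80 genes of the respiratory chain and ATP synthase only 5 passed, with Atp5f1 and Atp5b higher and Uqcrc2 and Uqcrq lower. Both lower genes passed only through testes. Atp5b was not called without Sperm-Cd-2 or Testes-Cd-1, nor Uqcrq without Testes-Cd-2. Actb, which served as a reference gene in the study, was called higher (log2 fold change 1.82, adjusted p = 0.014) with 14 and 30 counts in sperm and 16 and 21 in testes, and 7 of 14 alternatives did not call it, among them those without Sperm-Cd-2 or Testes-Cd-1 (adjusted p = 0.26 and 0.19).

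**Figure D4:**
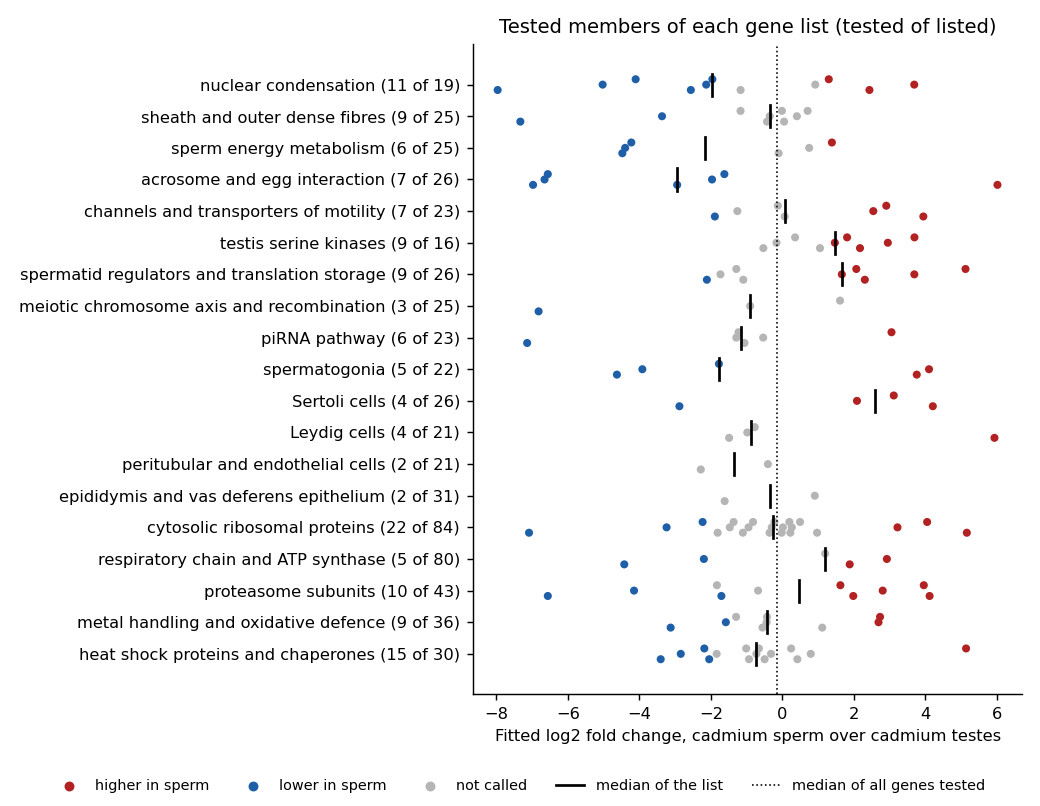
Fitted log2 fold change of cadmium sperm over cadmium testes for the tested members of 19 gene lists, 1 point per gene, red if called higher, blue if called lower and grey if not called. Numbers in brackets are members tested of members listed, black bars are list medians, the dotted line is the median of all genes tested (-0.15), and members with an empty tissue have fitted values that depend on a prior count. Testis serine kinases hold 5 red and 0 blue points, and acrosome genes 6 blue and 1 red.

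The highest known mRNA gene in sperm was Abi3, an adaptor protein of actin regulation, with 3549 and 3410 FPKM in sperm and 321 and 288 FPKM in testes (log2 fold change 3.90, SE 0.80, adjusted p = 8.5e-06). Tnfrsf13c, the receptor for the B-cell factor BAFF, had 1441 and 747 FPKM in sperm and only 15.6 and 7.93 FPKM in testes (log2 fold change 6.93, SE 0.79, adjusted p = 1.8e-16). Abi3 overlaps Phospho1 over 2069 bp and Gngt2 over 705 bp in RefSeq. Ndufa13, a subunit of respiratory complex I, and Ccdc189, a coiled-coil protein gene, were among the highest in both tissues. Ndufa13 had 1733 and 1546 FPKM in sperm and 795 and 1032 FPKM in testes, and Ccdc189 had 1491 and 1336 FPKM in sperm and 1166 and 1005 FPKM in testes. Neither was called (adjusted p = 0.10 and 0.35). Gm5148, Acat3 and Kcnmb4 stood higher in testes. Gm5148, a predicted gene, had 1337 and 1693 FPKM in testes and 411 and 521 FPKM in sperm and did not pass (adjusted p = 0.062). Acat3, an acetyl-CoA acetyltransferase, had 1149 and 1294 FPKM in testes and 54.7 and 103 FPKM in sperm (log2 fold change -3.54, adjusted p = 1.1e-06), and it overlaps a pseudogene over 4426 bp. Kcnmb4, a regulatory subunit of a calcium-activated potassium channel, had 458 and 501 FPKM in testes and 15.2 and 17.3 FPKM in sperm (log2 fold change -4.49, SE 0.65, adjusted p = 1.5e-10).

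The mRNA genes with the widest differences had 0 or 1 count in the other tissue. Rnpepl1, an aminopeptidase-like gene (chr1:92910377-92920585), had 173 and 119 counts in sperm and 0 in both testes libraries, at least 142-fold higher in sperm (adjusted p = 3.7e-23). Hcar1, the lactate receptor (chr5:123876739-123880003), had 81 and 82 counts in sperm and 0 in testes, at least 80.6-fold higher. Pou3f3, a transcription factor gene of 1 exon, had 43 and 44 counts in sperm and 0 in testes, at least 43.0-fold higher, and it lies within a lncRNA gene of RefSeq. Ntrk3, the receptor for neurotrophin-3, had 83 and 46 counts in sperm and 0 and 1 in testes, a ratio of 392 (95% counting interval 69.2 to 15617). Shb, a signalling adaptor, had 83 and 43 counts in sperm and 1 and 0 in testes. Eno1b, a processed copy of the enolase gene Eno1, had 187 and 106 counts in sperm and 0 in testes, but reads of its parent gene cannot be told apart from it with certainty.

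At the other end, genes filled only in testes had smaller bounds. Igsf10, an immunoglobulin-domain protein gene, had 100 and 103 counts in testes and 0 in both sperm libraries, at least 11.4-fold lower in sperm (adjusted p = 2.2e-09). Pitpna, a phosphatidylinositol transfer protein, had 116 and 88 counts in testes and 0 in sperm, at least 11.1-fold lower. Aldh9a1, Pacsin3, Tox and Ttc14 followed, with bounds of 7.12, 6.72, 6.21 and 5.41-fold. For each of these 6 genes, both sperm libraries were at 0.

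Noncoding RNAs held the highest levels in both tissues. NONMMUG018329.2, the gene with the highest summed expected count in each tissue, had 23327 and 14169 FPKM in sperm and 12813 and 14027 FPKM in testes, and it was not called (log2 fold change 0.53, SE 0.82, adjusted p = 0.63). In Sperm-Cd-2, NONMMUG020672.2 and NONMMUG074735.1 had more counts. NONMMUG018329.2 held 4.02% and 2.19% of the counts in sperm and 2.48% and 2.88% in testes, and without it 3370 genes were called higher and 3506 lower. NONMMUG074735.1 had 7490 and 14883 FPKM in sperm and 122 and 309 FPKM in testes (log2 fold change 6.04, SE 0.92, adjusted p = 1.2e-09). NONMMUG020672.2 had 9944 and 11742 FPKM in sperm and 3256 and 1400 FPKM in testes (log2 fold change 2.58, adjusted p = 0.0050), and it was not called without Sperm-Cd-2 (adjusted p = 0.059), nor with a filter on FPKM in place of counts. NONMMUG015766.2 had the highest mean FPKM of the known lncRNA genes in testes, 13508 and 15264 FPKM against 3833 and 3107 FPKM in sperm (log2 fold change -1.68, adjusted p = 0.045). It was not called without Sperm-Cd-2 or Testes-Cd-2 (adjusted p = 0.20 and 0.15). NONMMUG020754.2, whose longest model is 632 bp, had 7170 and 13972 FPKM in sperm and 11342 and 15081 FPKM in testes and was not called (log2 fold change 0.09).

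Several noncoding genes had nearly all their counts in 1 tissue. NONMMUG034964.2 had 1035 and 2011 counts in sperm and 0 and 2 in testes, a ratio of 4633 (95% counting interval 1281 to 38271). NONMMUG016622.2 had 484 and 420 counts in sperm and 1 and 0 in testes. NONMMUG077504.1 and NONMMUG077093.1 were at 0 in both testes libraries and at least 88.6-fold and 74.4-fold higher in sperm. In testes, NONMMUG017034.2 had 312 and 320 counts against 0 in both sperm libraries, at least 35.5-fold lower in sperm, and NONMMUG005621.2, NONMMUG046459.2 and NONMMUG043413.2 had bounds of 19.3, 18.9 and 18.0-fold. Among the predicted RNAs, LXLOC_075779 had 465 and 514 counts and LXLOC_075095 had 261 and 323 counts in sperm. Both had 0 in testes and were at least 485-fold and 290-fold higher in sperm. In control sperm, LXLOC_075779 had 3.44 counts in pool 4 and 0 in the other pools, and LXLOC_075095 had 0 in every pool. LXLOC_081920 and LXLOC_028960 were filled only in testes, with bounds of 22.9 and 21.2-fold. Of the predicted mRNAs, MXLOC_005565 and MXLOC_067289 were at least 64.1-fold and 22.4-fold higher in sperm, and MXLOC_045849 and MXLOC_021966 at least 8.10-fold and 5.83-fold lower. Of the lncRNA genes that the study examined, NONMMUG015781.2 had 2846 and 2799 FPKM in sperm and 14.6 and 20.6 FPKM in testes (log2 fold change 7.71, SE 0.79, adjusted p = 6.6e-20). LXLOC_030768 had 24 and 52 counts in sperm and 0 in testes, LXLOC_013896 had 24 and 41 counts in sperm and 0 and 6 in testes, and NONMMUG056132.1 was too scarce to test. Of 15 RNAs that the study names, 10 passed the filter and 9 were higher and 1 lower. Further lncRNAs for which the study gives primers were not in this list. The calls of Prm2, Celf3, Tssk6 and Actb were lost without Testes-Cd-1. Part of this list was picked by the study as upregulated in its sequencing data, and other members are its purity markers and reference genes. The list is therefore not independent evidence of a direction. Over all genes 25.4% were called higher and 22.8% lower, and 5 of the 9 higher RNAs passed the filter only through sperm.

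The same contrast could be drawn in control mice from libraries that the cadmium comparison did not use. Over the same 14212 genes, 3 control sperm pools against 2 control testes libraries called 12.7% of the genes, 669 higher (4.71%) and 1134 lower (7.98%), with a common dispersion of 0.564 against 0.128 in cadmium mice, so replicates differed more. Sperm pool 1 was left out. The study set that pool aside too. Of the 6849 genes called in cadmium mice, 6578 had the same direction in control mice, or 96.0% (95% Wilson interval 95.6 to 96.5%), beside 82.8% of all genes tested. The share was 93.5% for genes higher in sperm and 98.9% for genes lower in sperm. The median log2 fold change of all 14212 genes was -0.90 in control mice and -0.15 in cadmium mice. The part of this shift in the gap between the 2 shares was not tested. Among genes that reached the count filter in all 4 cadmium libraries, 96.8% of those called had the same direction, beside 78.8% of all such genes. In both comparisons 1686 genes were called with the same direction and 3 with opposite directions. Genes are not independent replicates, so the interval covers counting error only.

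**Figure D5:**
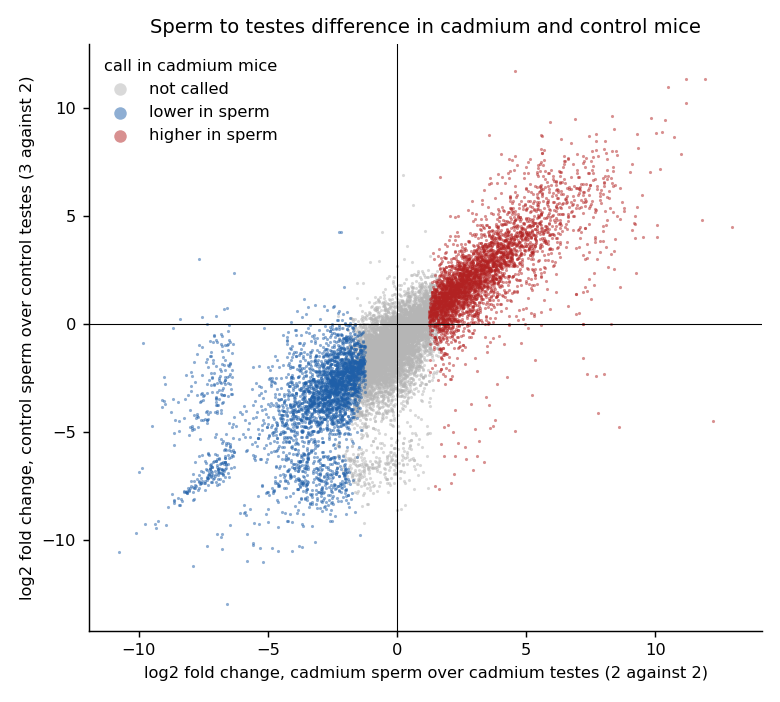
Log2 fold change of sperm over testes in cadmium mice (horizontal, 2 against 2 libraries) and in control mice (vertical, 3 against 2 libraries) for 14212 genes, coloured by the call in cadmium mice. Most called genes lie in the quadrants of equal sign (6578 of 6849), and the separate bands at the left and at the bottom hold genes with an empty tissue, whose fitted values depend on a prior count.

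The values in control mice are given for some of the genes described above. Cpeb2 had a log2 fold change of 4.77 in control mice, Tnfrsf13c 6.29, Abi3 3.41, NONMMUG015781.2 8.81, Tnp1 -4.91, Gfra1 -3.47 and Kcnmb4 -4.23. Of the named genes that were called, Catsperd, Camk4, Psmd11 and LXLOC_075095 had the opposite sign in control mice. None of these genes was called in control mice (adjusted p = 0.83, 0.97, 0.63 and 0.25 in the quasi-likelihood test). Catsperd was at 3.94 in cadmium mice and -0.56 (SE 1.52) in control mice, where sperm pools 2, 3 and 4 held 4, 0 and 0 counts. Psmd11 was at 1.62 in cadmium mice and -1.18 (SE 1.54) in control mice, where these pools held 12, 0 and 0 counts. Without Sperm-Cd-2, Psmd11 was at 0.36 in cadmium mice. No reversal is read from these control values. Whether the sperm to testes difference itself changed with cadmium was tested as an interaction over 9 libraries. Of 13953 genes, 396 had an unadjusted p under 0.05. That is a smaller share of the genes than the 0.05 expected if no gene differed. After adjustment 1 gene was called (0.00717%). That gene was LXLOC_075095, with 261 and 323 counts in cadmium sperm and 0 in all control sperm pools and in both cadmium testes libraries, and its adjusted p was 0.042. It was not called with DESeq2, with the library total alone, or without either cadmium sperm library. In simulated counts of the 2 against 2 design, 0% of 2-fold, 45.5% of 4-fold and 100% of 16-fold changes were called. Only 200 of 14212 genes were changed there, whereas 48.2% were called in the real comparison. The adjusted p therefore worked at another cutoff, and these rates do not measure what the real comparison could detect.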

How the data were processed

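RNA from sperm and testes was sequenced as paired ends. The study's methods name SOAPaligner, while the submitters' processing notes name HISAT and mm10. The tool that made the expected counts is not given in the sources used here. The authors deposited, for each library, the expected count and the FPKM of each transcript with an FPKM above 0, with its length. Expected counts are estimates, and 37.2 to 39.8% were not whole. They were summed by gene and rounded, and the FPKM values of the transcripts of a gene were added. Of 24 gene names turned into dates, 23 were restored.

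The main test was edgeR 4.0.16 (R 4.3.3), a quasi-likelihood test with TMM scaling and filterByExpr, in the 4 cadmium libraries, with calls at over 2-fold and a Benjamini-Hochberg adjusted p below 0.05. It tested 14212 of 69549 genes. Standard errors (SE) were calculated back from the F statistic. Genes empty in a tissue were given a bound from 3 counts per library, and genes with 1 to 3 counts an exact counting interval, both for counting error only. The alternatives used DESeq2 1.42.0, limma 3.58.1, other scalings and filters, thinning, transcripts, a replicate block and each library left out. The script was tested on simulated data.

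Named genes were, by rule, the largest differences in each RNA class, the highest genes of each tissue and 15 RNAs that the study names. The rule also took, in each gene list, the 3 highest members and the widest call in each direction. Tnp1, Spem1, Akap4, Ldhc, Csnk2a2, Sox30, Sohlh1, Rpl28, Atp5b, Uqcrq, Psma3, Slc30a1, Mt1 and Mt2 fall outside that rule and were chosen after their values were seen. The members, lists and tests were chosen with earlier results of these data known. Replicate libraries differed by more than counting error, with a chi-square per degree of freedom of 14.7 in sperm and 9.57 in testes.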

Additional observations from a re-analysis of the deposited data

Results flagged for a closer look

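LXLOC_075095, a predicted lncRNA, was the single gene whose sperm to testes difference was called between cadmium and control mice, by a log2 difference of 16.56 (standard error 2.53, adjusted p = 0.042 in edgeR's interaction test). It had 261 and 323 counts in the cadmium sperm libraries and 0 in the cadmium testes libraries, and in control mice 0 in all 4 sperm pools and 0 and 9 in the testes libraries. Since most of its libraries were empty, the fitted difference depends on the prior count and is no measure of size.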

How the results depend on the processing

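The count of genes called between cadmium sperm and testes ran from 4582 to 8154 over all alternatives, and from 4582 to 5860 when 1 library was left out. DESeq2 called 4958 genes, 2849 higher and 2109 lower. The direction balance moved with the scaling and filter, with 3249 higher and 3578 lower under upper-quartile scaling and 3306 and 3899 without a filter. Of 89 named genes that were called, 67 kept the call in every setting that tested them. The control comparison called 3042 genes with sperm pool 1, 4511 with pools 2 and 4 alone and 3077 with library size alone, against 1803. The interaction called 0 genes with library size alone, 0 with DESeq2, 2 with limma and 0 to 2 when 1 cadmium library was left out. The share of called genes with the same direction in control mice was 94.3% with pool 1, 97.4% with library size alone, 96.9% without pool 3 and 96.1 to 97.9% when 1 cadmium library was left out. The number of genes listed in sperm was 58.8% of that in testes at 5 counts or more and 81.7% at equal depth. Sperm minus testes was 1.63 percentage points for the FPKM share of predicted lncRNAs and 0.15 for predicted mRNAs, and 9.29 for the 20 highest genes and 3.02 for the 10 highest by FPKM. The causes were not tested.

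Genes that were not called changed sign. With library size alone, upper-quartile scaling, no filter, the FPKM filter and limma at both pseudocounts, NONMMUG020754.2 was at -0.32, -0.070, -0.28, -0.060, -0.39 and -0.39 and Odf2 at -0.27, -0.11, -0.30, -0.11, -0.24 and -0.24. Without NONMMUG018329.2 they were at -0.031 and -0.052, and Odf2 with thinned testes at -0.039. Tcp11 was at -0.053 and -0.054 with limma, and Cabyr at 0.045 with thinned testes. Rps2 was at -0.15 with library size alone, -0.12 without a filter and -0.28 and -0.30 with limma. When 1 library was left out, the log2 fold change ran from -0.68 to 0.58 for NONMMUG020754.2, from -0.45 to 0.72 for Odf2, from -0.47 to 0.53 for Cabyr, from -0.61 to 0.16 for Gapdh, from -0.44 to 0.20 for Gsk3a, from -0.64 to 0.67 for Rps2 and from -1.40 to 0.78 for Hsp90aa1.

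With the replicate number as a block, 6882 genes were called, 3597 higher and 3285 lower, 6486 of them shared with the unblocked fit, and Cabyr was at 0.0049. The labels do not say that a number pairs sperm with testes, and the deviations of same-numbered libraries correlated with r = 0.159. Sperm libraries held fewer counts than testes libraries, which limits what can be seen of genes scarce in sperm.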
